A study of Mus musculus with 8 samples.

Results

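The regions described here are the H3K27ac peaks of mouse chromosome 5, 1863 of the 22731 peaks in the deposited table, taken as every row placed on that chromosome. They were compared between Gata6 knockout and control colon cancer organoids after each library had been scaled by its own reads on chromosome 5, so that a fall shared by the whole chromosome was taken off and local differences remained. Both groups were organoids of the genotype labelled AKP, which the labels do not spell out; the knockout group is labelled Gata6KO_AKP, and C57Bl6 is given as the recipient mouse strain for all samples. Each group held 3 H3K27ac CUT&RUN libraries; an H3K4me3 and an IgG library of control organoids were not analysed here, so no background was subtracted. The labels give neither ages nor the number of knockout clones, and the level at Gata6 was not analysed here, so nothing checks the genotype labels.

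H3K27ac is acetylation of a lysine on histone H3. It is laid down by p300 and CBP at active promoters and enhancers and is removed by deacetylases, and wide stretches of it are common over strongly expressed genes and clustered enhancers. GATA6 is a zinc finger transcription factor active in the epithelium of the gut and in other tissues of endodermal origin, where it binds enhancers and promoters. In CUT&RUN an antibody brings a nuclease to the mark, and the DNA it cuts free is sequenced, so the reads in a peak reflect the mark at that place together with the amount of DNA that carries the place in the cell population. The deposited table pairs peaks with no genes, and no annotation or sequence of its build (mm9) was used here, so peaks are named by their mm9 positions and no sequence is shown.

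Chromosome 5 was selected on values of this same contrast, the fall of its reads in the knockout. Its share of all reads in peaks was 10.4%, 10.3% and 10.2% in the control libraries and 8.79%, 8.80% and 8.78% in the knockout libraries, given here and below in the order of replicates 1 to 3. The groups lay apart. Counts and folds on it below are therefore descriptions, with no test of chromosome 5 against the rest. A difference in the number of copies of the chromosome and a difference in acetylation per copy cannot be told apart from these counts. Between 483449 and 720058 reads per library fell in chromosome 5 peaks, and the median peak there held 156 to 226 reads. The median coefficient of variation between libraries of a group was 9.99% in control and 10.7% in knockout for single peaks, and 1.57% and 1.94% for the sums over 2.5-Mb steps used below.

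In the control libraries chromosome 5 stood above the other autosomes by each measure given here. In the knockout libraries its place depended on the measure: it was below them by the median density of its peaks, within their range by reads per peak, and still above them by its share of all reads in peaks. That share was 10.3% on average in control, against 2.65% to 8.29% on the other autosomes, and 8.79% in knockout, against 2.70% to 8.40%. Its number of peaks enters this share. RPM here means reads per 1000000 reads in all peaks. The median density of its peaks was 11.9 ± 0.171 RPM per kb in control (SD, n = 3), against 10.3 to 11.1 on the other 18 autosomes. In the knockout it was 10.2 ± 0.0881 (SD, n = 3), against 10.6 to 11.3. The mean number of reads per chromosome 5 peak, relative to the mean of all peaks, was 1.27, 1.26 and 1.25 in the control and 1.07, 1.07 and 1.07 in the knockout libraries. The other autosomes had group means of 0.756 to 1.09 in control and 0.770 to 1.11 in knockout, where 2 of them lay above chromosome 5. Chromosome 5 also had the most peaks per protein-coding gene of the 19 autosomes, 1.47 against 0.856 to 1.37 elsewhere; the gene numbers are from RefSeq for GRCm38.p6. Per 100 protein-coding genes its peaks held 0.813% of all reads in control and 0.693% in knockout libraries, against at most 0.634% and 0.620% on any other autosome.

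**Figure D1:**
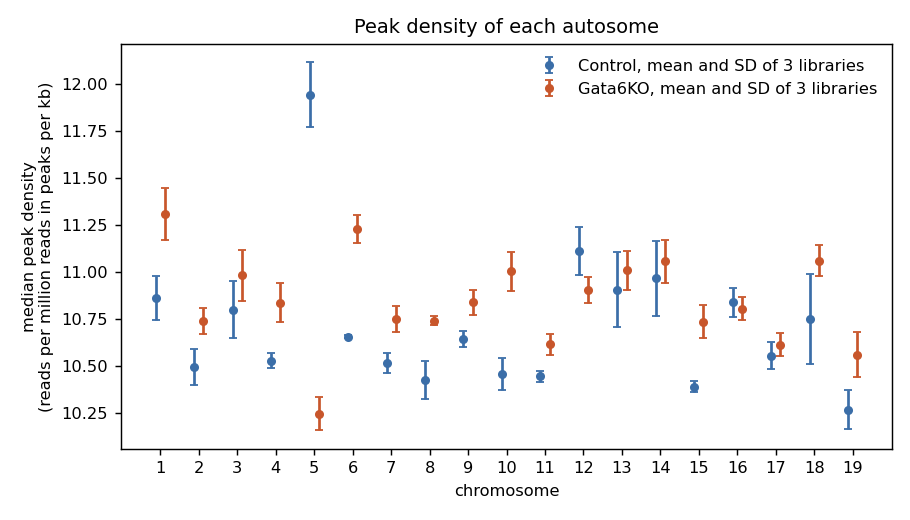
Median peak density of each autosome, in reads per 1000000 reads in peaks and per kb of peak, with the mean (points) and SD (bars) of 3 libraries per group; the vertical axis does not start at 0. Chromosome 5 is the highest of 19 in control (11.9) and the lowest in knockout (10.2).

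Scaling by chromosome 5 reads moved the fold changes of its peaks by a nearly constant 0.24 on the log2 scale (0.24 in both the lowest and the highest case), and the shape of their distribution stayed. The median log2 fold change of knockout over control was -0.02 after scaling and -0.26 before it, under the TMM factors of whole libraries. Peaks below 0 numbered 969 of 1863 after scaling, where 1470 had been below 0. A call means an adjusted p under 0.05 in edgeR's quasi-likelihood test over all 22731 peaks, with each chromosome scaled by its own reads. Of the chromosome 5 peaks, 199 were called higher and 184 lower; of all peaks, 11.3% were called higher and 8.79% lower, and on chromosome 5 alone 10.7% and 9.88%. The share called in either direction was 20.6%, against 20.1% of all peaks and 16.2% to 22.9% on the other 18 autosomes, where 10 of them had a larger share and 8 a smaller one. Chromosome 5 lay within the range of the other autosomes in the share called. So it did in the spread of fold changes (a median absolute deviation of 0.27, against 0.27 to 0.32 on the log2 scale). Its median also lay within their range, which scaling each chromosome by its own reads made likely. The 90th percentile of fold change was 0.431 on the log2 scale, just under the 0.433 to 0.583 of the other autosomes. Where the scaling centres each chromosome enters this value. Called gains of 2-fold or more numbered 35 of 1863 peaks, a smaller share than the 2.5% of all peaks. The other autosomes had 15 to 45 such gains, among fewer peaks each (674 to 1828).

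**Figure D2:**
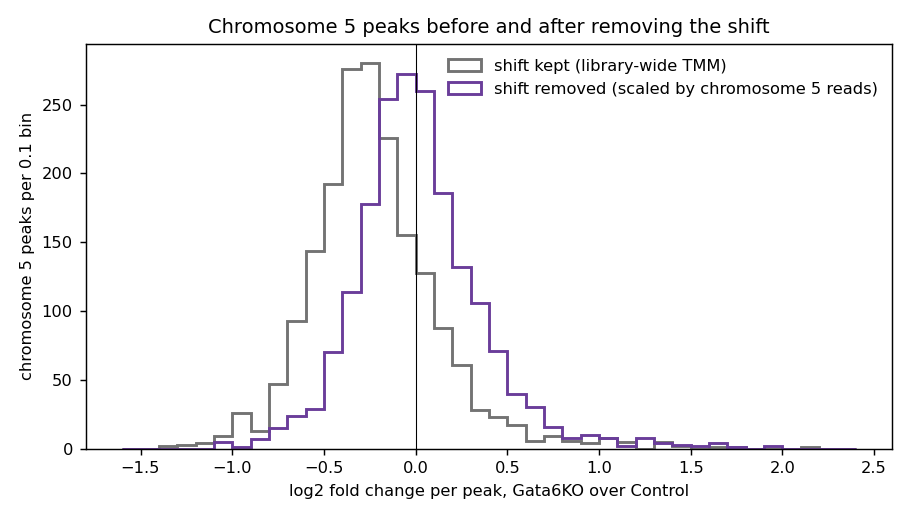
Number of chromosome 5 peaks per 0.1 of log2 fold change (knockout over control), with the chromosome-wide shift kept (grey) and removed (purple). The median moves from -0.26 to -0.02, and a longer tail remains on the side of gains.

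With the shift kept, lower calls had numbered 630 and higher calls 83; of all peaks, 10.2% were called lower and 11.6% higher under that scaling. After removal, 184 of the 630 lower calls were still lower and 445 were no longer called. All 83 higher calls were still higher, and 115 peaks became newly called higher. The direction of these changes in calls follows from adding a nearly constant value to each fold change. A single peak changed direction, an acetylated stretch of 16273 bp from 33075792 to 33092064. Its level was 4140, 4518 and 4741 reads per 1000000 chromosome 5 reads in the control libraries and 4753, 4757 and 5075 in the knockout libraries, so the groups lay apart by a narrow margin. Its log2 fold change was 0.12 ± 0.05 (SE) with the shift removed and -0.12 with it kept.

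Gains reached further than losses. Among called peaks the log2 fold change ran from 0.12 to 2.40 on the higher side and from -1.09 to -0.11 on the lower side, with medians of 0.58 and -0.46. Called gains of 2-fold or more numbered 35 and such losses 5 of the 1863 chromosome 5 peaks. Both were smaller shares than the 2.5% and 0.374% among all peaks. The groups did not overlap in 362 of the 383 called peaks, which calling them on these same libraries made likely. They did not overlap in 32.8% of all chromosome 5 peaks, against 32.5% of all peaks.

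At a scale of megabases, steps of chromosome 5 were called in both directions. Since each library was scaled by its own chromosome 5 reads, the shares of the steps sum to the whole, and a gain in some steps has to be met by losses in others. Of its 61 steps of 2.5 Mb, 46 held at least 5 peaks. Of these, 12 were called higher and 13 lower by edgeR's quasi-likelihood test on the summed reads of all 731 such steps of the genome. Over the genome 28.2% of steps were called higher and 23.4% lower. Called steps made up 54.3% on chromosome 5, against 51.6% of all steps and 33.3% to 65.6% on the other autosomes. The groups did not overlap in 27 of the 46 steps, against 56.1% of all steps. Step fold changes on chromosome 5 ran from -0.26 to 0.37 on the log2 scale. The 675 steps of the other 18 autosomes, each scaled by its own chromosome, ran from -0.49 to 0.81, and their SD was 0.15 as on chromosome 5. With the shift kept, 42 of the 46 steps had been below 0, from -0.50 to 0.13.

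The 6 named gained steps lay between 35 and 130 Mb, and only those from 75 to 77.5 Mb and from 77.5 to 80 Mb adjoined each other. From 127.5 to 130 Mb, the share of chromosome 5 reads was 0.618%, 0.629% and 0.648% in the control libraries and 0.767%, 0.832% and 0.856% in the knockout libraries, a log2 fold change of 0.37 ± 0.04 (SE). All 3 knockout libraries stood above the controls, and 10 of the step's 19 peaks were called higher and 0 lower. Between 75 and 77.5 Mb the share was 0.751%, 0.800% and 0.764% in control and 1.001%, 0.971% and 0.959% in knockout libraries, a log2 fold change of 0.34 ± 0.04 (SE). This step was mixed at the level of peaks, with 13 of 31 called higher and 4 lower. The step from 35 to 37.5 Mb carried the most reads of the 6 gained steps. Its share was 7.43%, 7.46% and 7.42% in control and 8.84%, 8.99% and 8.84% in knockout libraries, a log2 fold change of 0.26 ± 0.01 (SE), and 30 of its 98 peaks were called higher and 3 lower. Most of its rise lay in the 33 peaks from 36408935 to 36741820, whose mean sum went from 29612 to 41776 in the same unit. With the shift kept this step had a log2 fold change of 0.02 and was not called.

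The gain from 107.5 to 110 Mb rested largely on 1 peak. Its share rose from 1.49% ± 0.0145 in control to 1.88% ± 0.0172 in knockout libraries (SD, n = 3 each), or by 0.33 ± 0.03 (SE) on the log2 scale. The peak from 109122794 to 109146236 held 33.1% of the control reads of the step and had a log2 fold change of 0.66, and without it the step stood at 0.14. The other gained steps were those from 62.5 to 65 Mb, at 0.21 ± 0.02 (SE) with 12 of 43 peaks called higher, and from 77.5 to 80 Mb, at 0.21 ± 0.04 (SE) with 4 of 11 called higher. With the shift kept both of the latter stood at -0.03 and were not called.

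Losses by step were shallower. The largest was measured from 105 to 107.5 Mb, where the share was 0.872%, 0.901% and 0.866% in control and 0.744%, 0.739% and 0.723% in knockout libraries, a log2 fold change of -0.26 ± 0.04 (SE). In this step 18 of 19 peaks lay below 0 and 6 were called lower, next to the gained step that begins at 107.5 Mb. From 22.5 to 25 Mb the share fell from 2.40% ± 0.0242 to 2.09% ± 0.00698 (SD, n = 3 each), and 12 of 47 peaks were called lower and 0 higher. At the start of the chromosome, from 2.5 to 5 Mb, 7 of 33 peaks were called lower and 0 higher, and the step stood at -0.20 ± 0.03 (SE). The remaining losses among the 6 steps were -0.17 from 112.5 to 115 Mb, -0.14 from 42.5 to 45 Mb and -0.14 from 140 to 142.5 Mb. In the step from 140 to 142.5 Mb a single peak of 80898 bp, at -0.03 and not called, held 24.6% of the control reads, and the step stood at -0.17 without it. In the step from 42.5 to 45 Mb the peak with the most reads, from 44336399 to 44341087, stood at 0.46, and the step stood at -0.27 without it.

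**Figure D3:**
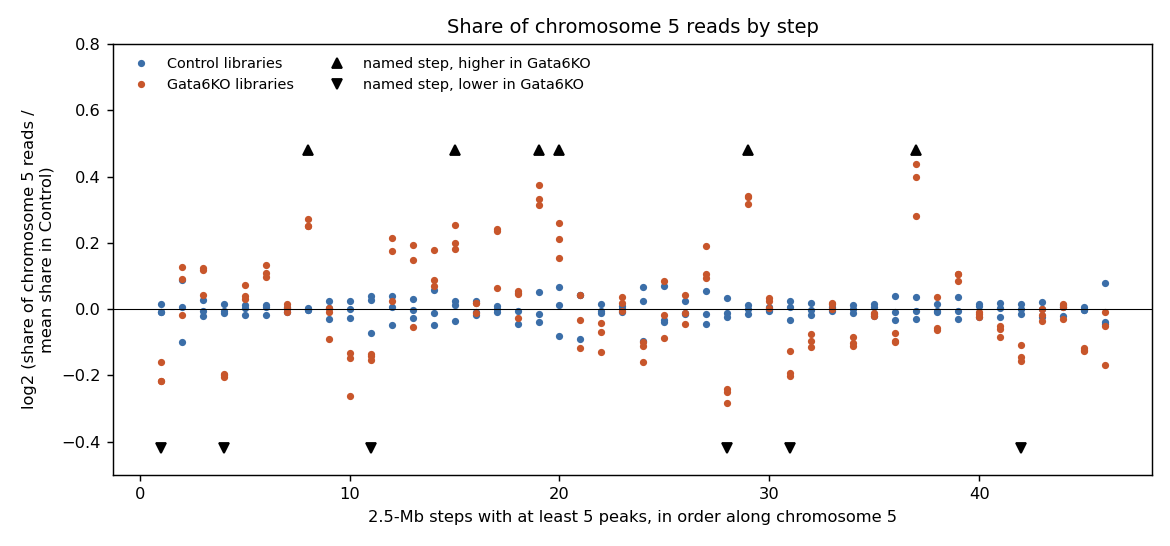
Log2 ratio of each library's share of chromosome 5 reads to the mean control share, for the 46 steps of 2.5 Mb with at least 5 peaks, in order along the chromosome (blue, 3 control libraries; orange, 3 knockout libraries). Triangles mark the 6 gained and 6 lost steps named in the text, in which the 2 groups do not overlap.

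Calls in both directions often fell in one step. Peaks called higher and peaks called lower were both present in 31 of the 46 steps, or 67.4%, against 56.9% of all steps and 30.6% to 72.7% on the other autosomes, so chromosome 5 lay within their range. Of 8 pairs of adjacent steps that were both called, 4 went the same way and 4 opposite ways, and on the other 18 autosomes the numbers were 73 and 71 of 144. The step in which a peak lay accounted for 14.9% of the variance of fold change among chromosome 5 peaks, against 7.62% to 22.3% on the other autosomes. Pearson's r between the fold changes of adjacent peaks was 0.40, against 0.29 to 0.44 elsewhere. It was taken across 1863 peaks, which share libraries and are not independent. The direction of 23 of the 25 called steps held when the peak with the most reads was left out; the other two, from 20 to 22.5 Mb and from 52.5 to 55 Mb, then stood at -0.01 and -0.00.

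The single gains described here are the 12 called peaks with the largest change among those at or above the median level of chromosome 5 peaks, 323 reads per 1000000 chromosome 5 reads, whose groups did not overlap. The level is the mean over all 6 libraries, and 7 of the 12 had a control mean under that limit, so they reached it only through the knockout libraries in which they were high. Levels and sums below are in that unit. The peak from 77110157 to 77113368 had levels of 147, 174 and 128 in control and 614, 525 and 606 in knockout libraries, a 3.93-fold gain, or 1.97 ± 0.16 (SE) on the log2 scale. The lowest knockout library stood well above the highest control library. From 77186667 to 77192950 the levels were 220, 242 and 183 in control and 650, 790 and 702 in knockout libraries, a 3.34-fold gain. A peak that stands away from these, from 119777802 to 119783788, went from 470, 476 and 433 to 1286, 1204 and 1194. It gained 2.68-fold inside a step, 117.5 to 120 Mb, whose sum was not called and which held 10 higher and 7 lower calls.

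On the part of the chromosome beyond 127 Mb, 3 of the 12 peaks lay in the step with the highest fold change. The peak from 129124278 to 129127823 had levels of 187, 174 and 206 in control and 392, 550 and 559 in knockout libraries, the first knockout library being the lowest of its group. The other two, from 127962616 to 127966766 and from 129094129 to 129099397, both gained 1.99-fold, the former from 335 ± 18.2 to 668 ± 49.7 (SD, n = 3 each). Around 65 Mb another 3 peaks were among the 12. The one from 65055774 to 65059193 rose from 190, 226 and 269 to 567, 476 and 614, while those from 65100389 to 65103583 and from 64826696 to 64830812 gained 2.01-fold and 1.84-fold.

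The remaining gains among the 12 stood alone. From 29713252 to 29716069 the level went from 230 ± 23.1 to 513 ± 63.3 (SD, n = 3 each), and from 32360250 to 32362482 it went from 215 ± 24.1 to 450 ± 25.3. The latter peak lay in the step from 30 to 32.5 Mb, itself called higher at 0.11 ± 0.02 (SE) on the log2 scale. In that step 7 of 53 peaks were called higher and 2 lower. The highest knockout level of the 12 was found from 53000727 to 53008468, at 741, 981 and 861 in control and 1907, 1572 and 1573 in knockout libraries. This peak lay in the step from 52.5 to 55 Mb, whose 26 peaks had a median of -0.02.

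Losses beyond the shift ran from 1.61-fold to 2.03-fold among the 12 peaks chosen by the same rule, 4 of which had a knockout mean under the limit on level. The peak from 66948837 to 66954767 had levels of 1121, 1091 and 1080 in control and 535, 546 and 540 in knockout libraries, so its log2 fold change was -1.02 ± 0.10 (SE). The libraries of each group were close together and the groups far apart. Another 3 of the 12 lay within the same 89.4 kb. From 66865374 to 66869618 the levels were 676, 638 and 758 in control and 400, 401 and 367 in knockout libraries. From 66925729 to 66929098 they were 526, 476 and 353 against 270, 223 and 294, so that the lowest control library came close to the highest knockout library. The fourth, from 66876561 to 66882458, fell from 825 ± 91.8 to 512 ± 122 (SD, n = 3 each).

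Beyond 140 Mb a pair of peaks fell. From 140679676 to 140685909 the levels were 1046, 1132 and 1086 in control and 710, 501 and 706 in knockout libraries, and from 140742445 to 140744058 they were 423, 472 and 417 against 301, 273 and 235. The peak from 124681550 to 124687321 went from 669, 540 and 550 to 313, 410 and 272, a 1.77-fold loss. The first peak of the chromosome, from 3340611 to 3345712, fell 1.67-fold, from 1026, 1079 and 1203 to 694, 587 and 706. The remaining 4 fell 1.61-fold to 1.71-fold. They begin at 99670202, 137008999, 93346602 and 24529640 and end at 99673645, 137013358, 93349585 and 24535272.

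**Figure D4:**
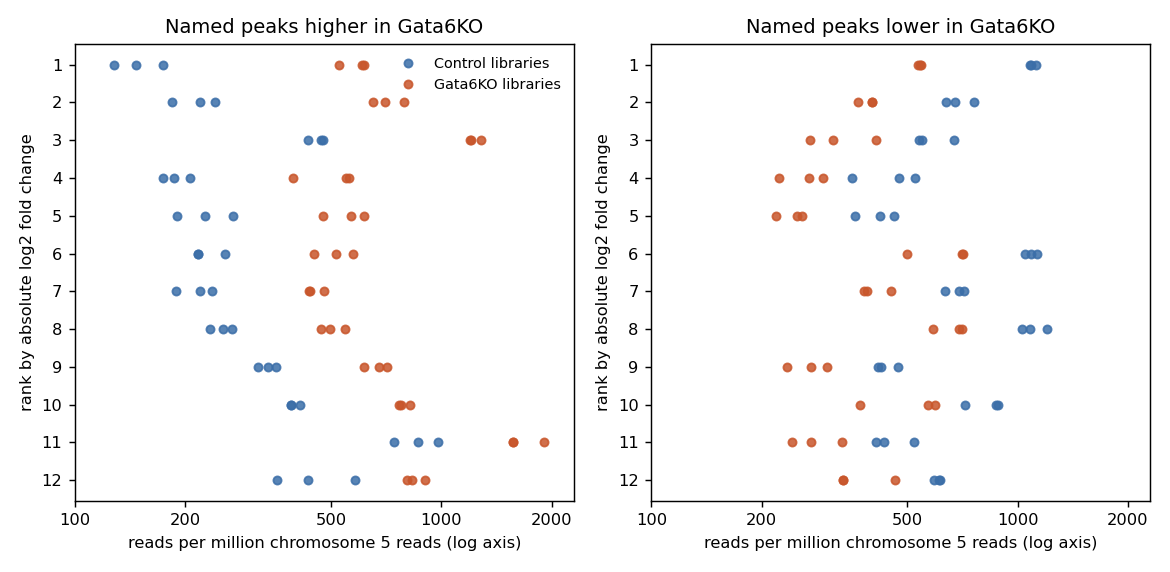
Level of the 12 named gained (left) and 12 named lost (right) peaks in each library, in reads per 1000000 chromosome 5 reads on a log axis, ranked by absolute log2 fold change (blue, 3 control libraries; orange, 3 knockout libraries). The groups do not overlap in any of the 24 peaks, which the rule for naming them required.

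Removing the shift left few of the runs of adjacent losses. A run is here a series of at least 3 peaks, called in 1 direction, that follow one another no more than 10 kb apart. With the shift kept there were 47 runs of lower calls on chromosome 5, holding 194 peaks; 60 of these peaks were still called lower after removal, 15 of the 47 runs kept none and 5 still held a run. With the shift kept, such runs held 10.4% of chromosome 5 peaks and 0.994% of peaks on the other 18 autosomes. Among all peaks, chromosome 5 included, the share was 1.76%. On the other 18 autosomes there were 51 of them, and 203 of their 206 peaks were also called lower when each chromosome was scaled by its own reads. The drop on chromosome 5 follows from adding a nearly constant 0.24 to each of its log2 fold changes. In all, chromosome 5 had 7 higher runs with 30 peaks and 5 lower runs with 15 peaks after removal. Of all peaks, 1.69% lay in higher and 1.04% in lower runs. The 5 lower runs became 2 when control replicate 1, control replicate 2, knockout replicate 2 or knockout replicate 3 was left out.

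Of the higher runs, 4 lay one after another between 36408935 and 36741820, within the step of 35 to 37.5 Mb. The run with the most peaks, 6 from 36675417 to 36741820, summed to 9562, 9436 and 10259 in control and 14652, 14599 and 15298 in knockout libraries, a ratio of 1.52. Over the whole 333 kb the 33 peaks lay above 0, by 0.20 to 0.92 on the log2 scale, and 21 were called higher and 0 lower. Their sum was 29550, 28929 and 30357 in control and 41029, 41814 and 42484 in knockout libraries, 1.41 times the control sum. The gain here was thus moderate at each peak and spread over the stretch.

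The stretch from 77086075 to 77192950 started lower and gained more strongly. All 8 of its peaks were called higher, by 1.22 to 2.40 on the log2 scale. Their sum was 731, 879 and 764 in control and 2535, 2737 and 2635 in knockout libraries, a ratio of 3.33. The named peaks among them had control means of 149 and 215, under the limit of 323 on level. No background was subtracted, and how far the ratio rests on low control counts was not tested. Whether these peaks entered the peak set only through the knockout libraries is not known. From 64773521 to 65103583, the 21 peaks lay above 0 and 14 were called higher. Their sum went from 9642 ± 358 to 13033 ± 719 (SD, n = 3 each), a ratio of 1.35.

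Among losses, the 8 peaks from 66865374 to 66954767 all lay below 0, by 0.35 to 1.02 in size, and 6 were called lower. Their sum was 4471, 4376 and 4083 in control and 2622, 2823 and 2324 in knockout libraries, 0.601 times the control sum. From 140636985 to 140744058, 8 peaks lay below 0 and 6 were called lower, and their sum went from 15588 ± 66.3 to 11869 ± 196 (SD, n = 3 each), a ratio of 0.761. From 24529640 to 24591481, 6 peaks lay below 0 and 4 were called lower, with a ratio of 0.690. The stretch from 136776640 to 137013358 was mixed. Its 22 peaks included 6 called lower and 2 called higher, and their summed ratio was 0.906. These stretches were drawn by joining named peaks and runs of one direction within 500 kb, a rule set after the values were seen, so their direction was fixed by their choice.

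**Figure D5:**
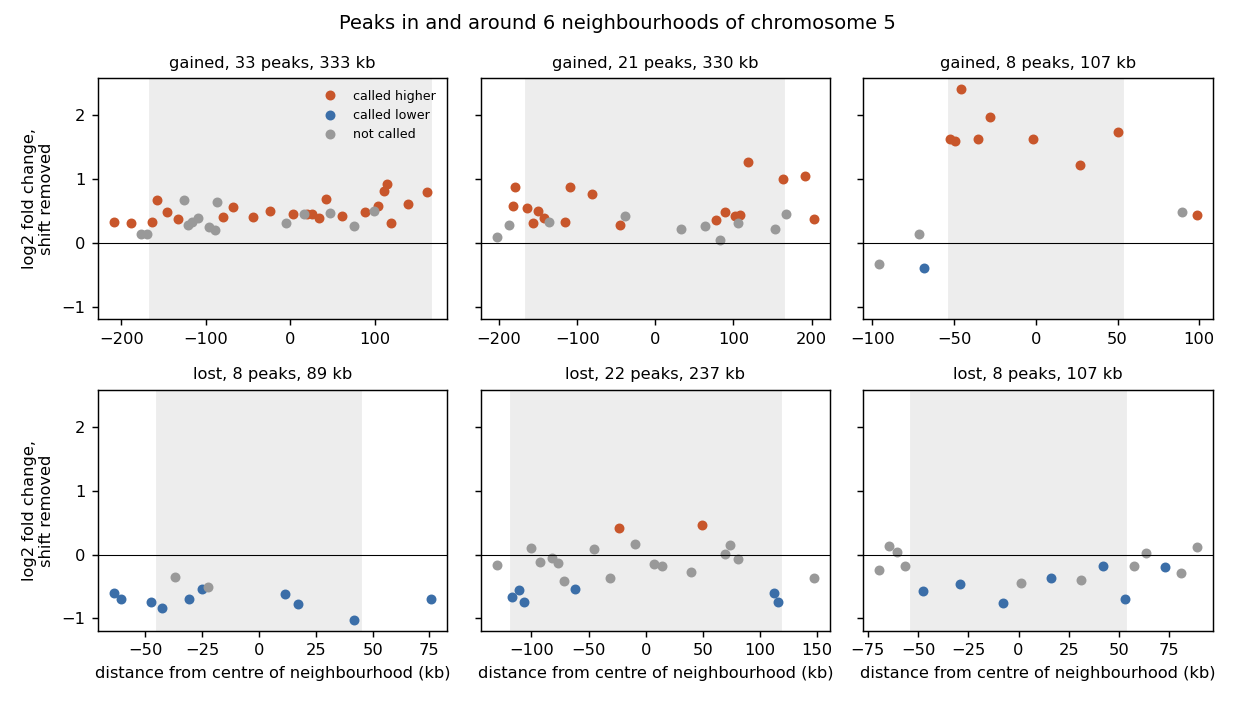
Log2 fold change of each peak, with the chromosome 5 shift removed, against the distance of its midpoint from the centre of 6 stretches of at least 8 peaks (grey band) and 50 kb to either side. In the upper row (gained) all points in the bands lie above 0; in the lower row (lost) those of the middle stretch lie on both sides of 0.

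Width, level and spacing of the called classes are given beside the same medians on the other 18 autosomes. The median width was 4345 bp among the 184 lower peaks, 3236 bp among the 199 higher peaks and 2768 bp among the 1480 not called. Elsewhere these were 3778, 2851 and 2578 bp. The median control level was 562 for lower, 318 for higher and 304 for uncalled peaks. Relative to the median peak of the same chromosome, the control level was 1.76 for lower and 0.994 for higher peaks, against 1.74 and 0.794 elsewhere. The median distance to the nearest peak was 4608 bp among higher peaks and 2447 bp among lower ones, against 4269 and 2892 bp elsewhere. The order of the higher and lower classes was thus the same on both sides. Part of these values moves with depth: when the peaks were ordered by level and cut into 5 equal classes, the lowest held 41 higher and 21 lower calls and the highest 53 higher and 73 lower. In percent, the lowest class had 11.0% higher and 5.65% lower calls and the highest 14.2% and 19.6%, against 13.1% and 2.06%, and 13.6% and 17.0%, elsewhere. When the scaling was also allowed to vary with the mean count, the chromosome 5 counts became 30 and 30, and 54 and 59. The lowest class then had 8.06% higher and 8.06% lower calls, against 8.46% and 4.47% elsewhere. The highest class had 14.5% and 15.8%, against 15.1% and 14.7% elsewhere.

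Among wide peaks, lower calls outnumbered higher ones. Of 106 chromosome 5 peaks of at least 10 kb, 34 were called lower and 18 higher, with log2 fold changes of -0.57 to 0.80 and a median of -0.07; with scaling that varied with the count, 25 were lower and 19 higher. Elsewhere in the genome 248 of 874 such peaks were called lower and 113 higher. The widest peak of the chromosome, 100737 bp from 125488613 to 125589349, had levels of 21767, 22288 and 23118 in control and 20402, 20871 and 21115 in knockout libraries. Its log2 fold change was -0.11 ± 0.02 (SE), and it lost its call when the scaling varied with the count. The third widest, from 120581320 to 120650358, fell from 11037 ± 101 to 9090 ± 73.8 (SD, n = 3 each), and its log2 fold change was -0.28 ± 0.03 (SE).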

How the data were processed

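The values deposited by the authors are raw counts of reads, not normalized, for 1 peak set in 6 H3K27ac libraries. Per the submitters' processing notes, the build was mm9 and the tools were Picard, SEACR, bedtools, Bowtie and SAMtools, without versions or roles; how peaks were combined and counted is not given in the sources used here. Between 82.7% and 89.2% of chromosome 5 counts per library were even, so reads may be counted as mates and counting error is wider than the reads imply. The main fit used edgeR 4.0.16 in R 4.3.3: a quasi-likelihood test on group, two-sided, with an offset equal to the log of each library's reads on the peak's own chromosome (13 peaks on unplaced contigs used all reads off chromosome 5), and Benjamini-Hochberg adjustment over 22731 peaks. Every peak passed edgeR's expression filter. SE came from the F statistic. Steps were 2.5 Mb from position 0, by peak midpoint, and needed 5 peaks; named steps were the 6 called per direction with the largest fold change among those with 10 peaks, and named peaks are defined in the report. Alternatives were DESeq2 1.42.0, other scalings and filters, halved counts, leaving out single libraries, and a replicate block. The procedure was run on simulated counts with a lowered chromosome 5 and dispersions taken from these same data. Of chromosome 5 peaks, 49 of 50 changed 2-fold and 24 of 50 changed 1.5-fold were recovered, so smaller changes can be missed. Of 1763 unchanged chromosome 5 peaks, 0 were called with own-chromosome scaling and 80 with library-wide TMM. The simulated fall was uniform and the added changes were balanced between gains and losses, which made this contrast likely. These counts therefore do not give the error rate of the real calls. Chromosome 5, the rules and the lists were chosen with earlier results of these data known. Whether replicates were separate cultures is not in the labels, and p-values cover only the spread among these libraries, which may be technical.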

Additional observations from a re-analysis of the deposited data

How the results depend on the processing

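With the shift kept (TMM over whole libraries), chromosome 5 had 83 higher and 630 lower peaks, a median of -0.26, 3 higher and 47 lower runs and 3 higher and 38 lower steps; the steps from 62.5 to 65 Mb and from 77.5 to 80 Mb reversed, to -0.0300 and -0.0308, as the shift is larger than their gain. The median moved from -0.0166 to -0.0124 with TMM and to -0.00695 with median ratio factors within each chromosome, and to -0.0264 with trended offsets. At an adjusted p under 0.01 there were 109 lower peaks and 2 lower runs, and with gaps of at most 20 kb 8 lower runs. With 5-Mb steps, 7 were called higher. Without single libraries, higher peaks numbered 163 to 177, lower peaks 126 to 158, higher steps 10 to 13, lower steps 11 to 14, higher runs 5 to 7 and lower runs 2 to 4, and the median was -0.0178 to -0.0119. In the labels, same-numbered libraries shared only a number. Correlations of their deviations were 0.00596 to 0.0643, and -0.0472 to 0.0394 for other pairs. With 3 libraries per group these values cannot decide whether libraries of the same number were handled together. With that number as a replicate block, 201 peaks were higher and 189 lower. The 24 named peaks kept direction and call in all fits, which their choice made likely. Trended offsets shared 93.2% and DESeq2 96.9% of the 383 calls, and fits without 1 library 72.3% to 79.1%.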
